A study of Mus musculus with 72 samples.

Results

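The 8 genes described here mark the epiblast after it has left the naive state: Fgf5, Otx2, Pou3f1, Zic2, Pim2, Foxd3, Grhl2 and Sall2. They were chosen by name from a list of 9 gene names for the formative and primed epiblast, in which Oct6 is a synonym of Pou3f1. They are 8 of 45321 genes with a matched transcript, and all 8 were among the 18273 genes with enough counts to be tested. The samples were mouse embryonic stem cells with or without Nup133, a scaffold subunit of the nuclear pore, during differentiation toward neuroectoderm. Controls (Nup133+/+, 40 chromosomes, XY) were 2 samples of HM1, labelled as biological replicates, and 1A4, derived from a blastocyst and also carrying Sox1gfp/+. The knockouts were lines 14 and 19 (Nup133-/-, XY), CRISPR/Cas9 derivatives of HM1, and the blastocyst-derived line 319 (Nup133merm/merm, Sox1gfp/+). Line 319 is labelled as having 42 chromosomes, XX with extra copies of 8 and 12, so sex chromosomes and copy number differ from its control 1A4. Line 14 is labelled as having 40 chromosomes, and line 19 as likely having 40. At day 0 cells came from serum and LIF and had been plated off their feeder fibroblasts for 20 min, at day 2 they had grown in N2B27 medium, and at day 3 they had then received 1 µM all-trans retinoic acid for 24 h. Genotype and day together gave 6 groups of 3 samples, and levels are in CPM, counts per 1000000 after scaling between samples.

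Pluripotent cells pass from a naive state, which resembles the early epiblast of the blastocyst, through a formative state to a primed state that resembles the epiblast around implantation. Formative cells have lost most naive transcription factors and have not yet taken a lineage, and growth factor signalling through FGF and ERK drives the passage. OTX2 and the POU factor OCT6 (Pou3f1) are transcription factors of this window, Fgf5 is its classical marker, and several of these factors are used again in early neural tissue.

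Promoter sequences are shown for 4 members because they stand for the main patterns of the data. Pim2 had the highest level of the 8 at day 2, Fgf5 had one of the steepest falls at day 3, Otx2 had the deepest fall of the 3 transcription factors called at both steps, and Foxd3 was the member that differed between genotypes. RefSeq holds promoter entries for 5 of the 8 members (also Sall2) in the table used, on GRCm38.p6. Each window is the 250 bases before an annotated start, for Otx2 the start of the 4 in RefSeq that is nearest to that of the transcript counted here, read 5′ to 3′ on the strand of the gene. Capitals mark matches, on either strand, to short motifs.
Fgf5, chr5:98253934-98254183, plus strand: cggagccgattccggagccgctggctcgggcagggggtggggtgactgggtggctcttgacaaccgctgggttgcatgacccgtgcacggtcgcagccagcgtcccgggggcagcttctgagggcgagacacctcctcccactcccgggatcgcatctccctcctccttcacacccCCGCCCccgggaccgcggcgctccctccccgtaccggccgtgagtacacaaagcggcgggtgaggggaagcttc
Otx2, chr14:48665110-48665359, minus strand: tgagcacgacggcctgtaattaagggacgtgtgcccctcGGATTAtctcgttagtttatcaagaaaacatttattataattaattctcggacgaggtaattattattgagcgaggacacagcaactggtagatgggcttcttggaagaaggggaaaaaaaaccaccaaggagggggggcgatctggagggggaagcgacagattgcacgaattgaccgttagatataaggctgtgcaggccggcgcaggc
Pim2, chrX:7878056-7878305, plus strand: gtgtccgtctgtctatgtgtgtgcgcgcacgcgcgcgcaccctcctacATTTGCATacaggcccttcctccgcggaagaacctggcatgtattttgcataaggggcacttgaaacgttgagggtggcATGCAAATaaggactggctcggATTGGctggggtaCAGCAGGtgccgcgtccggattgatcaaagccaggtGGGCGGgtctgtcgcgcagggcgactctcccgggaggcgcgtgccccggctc
Foxd3, chr4:99656049-99656298, plus strand: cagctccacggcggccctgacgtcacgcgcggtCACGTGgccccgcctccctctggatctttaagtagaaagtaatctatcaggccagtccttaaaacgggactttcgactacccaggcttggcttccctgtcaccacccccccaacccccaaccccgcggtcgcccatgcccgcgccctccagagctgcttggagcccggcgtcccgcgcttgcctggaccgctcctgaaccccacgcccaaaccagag

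The Pim2 window held 2 matches to the octamer ATGCAAAT, the element that POU factors such as OCT4 and OCT6 recognise, at 202 and 123 bases before the start. That octamer was found in 1.6% of 32851 mouse windows of the same length. Pim2 also held a ZIC element (CAGCAGG, in 8.44% of windows), a GC box (GGGCGG, in 32.7%) and a CCAAT box (CCAAT, in 33.8%). In Otx2 the match at 211 bases before the start was to TAATCC, the element of OTX factors, which was found in 6.25% of windows. The Foxd3 match was an E-box (CACGTG, in 6.02%), and the Fgf5 match was a GC box. Searched in the same way on both strands, and without a match in these 4 windows, were motifs for LEF/TCF (CTTTGAA), ETS (CCGGAAGT) and GRHL (AACCNGGTT), the TATA box (TATAAA), and the retinoic acid response element, as a single AGGTCA and as a DR5 pair. These are matches of letters and not measured binding.

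On GRCm38, Fgf5 lies at chr5:98254184-98277030 with 3 exons and Pim2 at chrX:7878302-7883432 with 6. Otx2, Zic2 and Sall2 are all on chromosome 14, at chr14:48657679-48665106 (4 exons), chr14:122475435-122479852 (3 exons) and chr14:52311177-52328762 (2 exons). Pou3f1 at chr4:124656807-124660655 and Foxd3 at chr4:99656299-99658622 have 1 exon each, and Grhl2 at chr15:37233036-37363569 has 16. These spans and exon counts are those of the transcript that stood for each gene, the one with the most counts. Other annotated genes overlap the exons of 3 of these transcripts. They are Gm2164 on the opposite strand over 330 bases of Pou3f1, Gm16136 on the opposite strand over 124 bases of Grhl2, and Gm23366 on the same strand over 89 bases of Foxd3, and reads in those bases cannot be assigned with certainty.

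Gene counts per sample ranged from 16.5 M to 54.4 M. Nup133 lay between 179.5 and 323.4 CPM in the 9 control samples and between 14.3 and 37.1 CPM in the 9 knockout samples. One library stood apart: line 19 at day 2 had the lowest depth, and a single gene, Gm42418, took 10.12% of its counts, against at most 1.48% for the top gene of any other sample. The files count each transcript of a gene separately, and 14 shorter transcripts of the members end over 100 bases before the 3′ end of the transcript used. In 12 of these 14, the count as a percentage of the longer transcript was lower in line 19 at day 2 than in any other sample with enough counts. Most of the 12 belong to Otx2 and the rest to Pim2, Grhl2 and Fgf5. Transcripts of a gene share reads, so these are not independent observations. For the 600-base transcript of Fgf5 the percentage was 21 in line 19 at day 2, against a median of 37.05 in 12 other samples. Day 2 results are therefore also given without that library where its removal moves them. In the line 319 samples, genes on the X chromosome had median log2 ratios to 1A4 of 0.74, 0.59 and 0.50 at days 0, 2 and 3. Genes on the autosomes other than 8 and 12 had medians of -0.02 to -0.04. Since the RNA is from bulk cultures, fewer cells with a transcript and less of it per cell cannot be told apart.

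Of the 8 members, 6 rose to day 2 and 7 fell from day 2 to day 3 in each genotype. The day 2 level was above both the day 0 and the day 3 level in all 6 series of samples for 6 of the 8 genes, Fgf5, Otx2, Pou3f1, Zic2, Pim2 and Foxd3, a shape that 4.89% of all genes tested had. For Otx2 in line 19 the excess over day 0 was within rounding, 170.7 against 170.8 CPM. From day 0 to day 2, 6 of 8 members rose in the controls and 6 of 8 in the knockouts, the same 6 genes, while 19.7% and 20.8% of all genes tested were called higher. In the controls 3 rose without HM1 replicate 2 and 3 without 1A4. From day 2 to day 3, 7 of 8 fell in each genotype, again the same genes, while 8.92% (controls) and 16% (knockouts) of all genes were called lower. Fgf5, Otx2, Pou3f1, Zic2 and Pim2 passed the test at both steps in both genotypes, as did 1.63% of all genes. Grhl2 and Sall2 departed from this shape in different ways, since Grhl2 fell without a prior rise and Sall2 rose and stayed high.

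**Figure D1:**
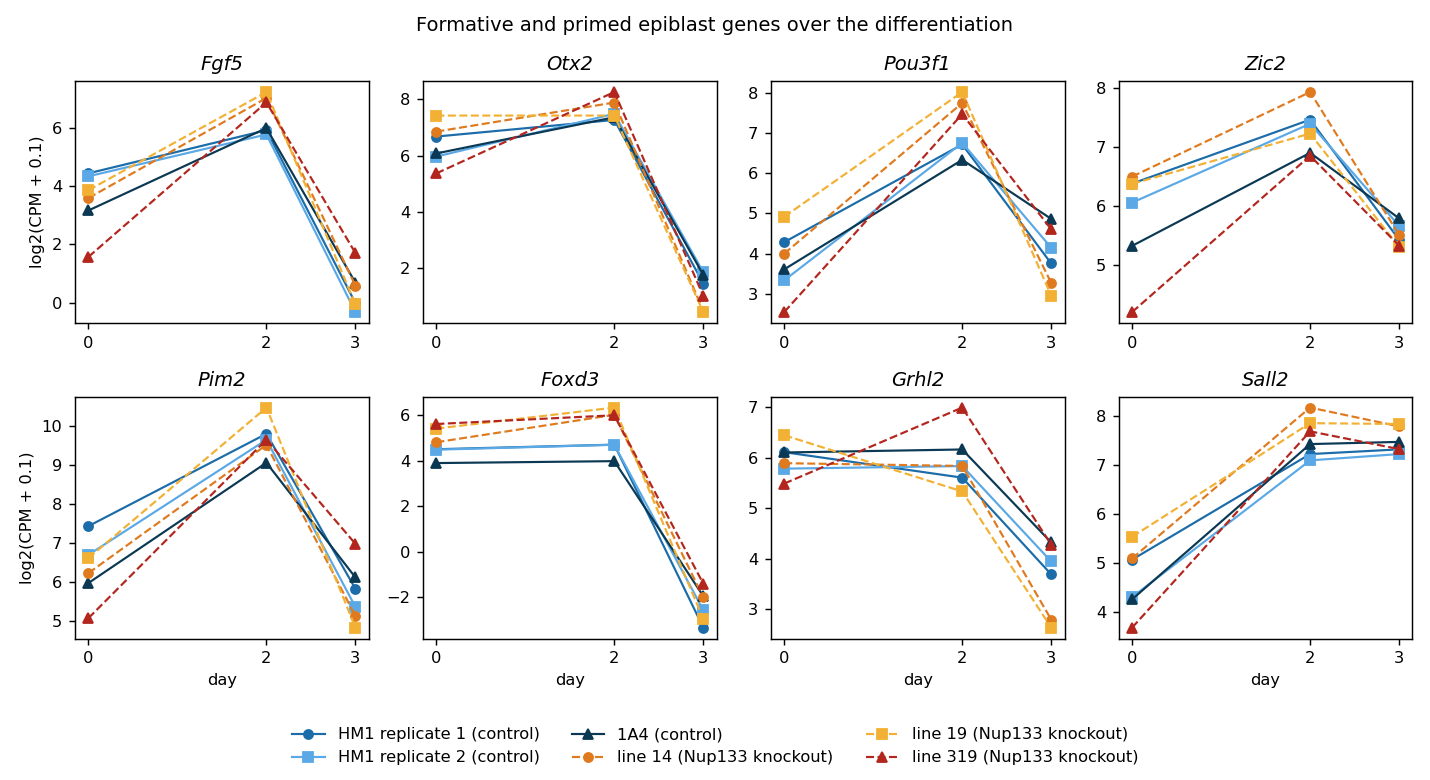
Level of each member as log2(CPM + 0.1) against day in the 3 control series (solid lines, blue) and the 3 knockout series (dashed lines, orange to red), 1 point per sample; each panel has its own vertical range. In the panels of 6 genes day 2 lies above day 0 and day 3 in every series, for Otx2 in line 19 only from 170.7 to 170.8 CPM. Grhl2 falls from day 2, and Sall2 rises to day 2 in every series and keeps its level to day 3.

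Fgf5 encodes a secreted fibroblast growth factor of the epiblast. At day 0 its level was 21.7, 20.2 and 8.9 CPM in HM1 replicate 1, HM1 replicate 2 and 1A4, and 12.0, 14.5 and 2.88 CPM in lines 14, 19 and 319. At day 2 the controls held 60.8, 54.9 and 63.9 CPM and the knockouts 131, 151.1 and 118.1 CPM, with every knockout sample above every control sample. By day 3 it was between 0.7 and 1.51 CPM in the controls and between 0.86 and 3.16 CPM in the knockouts. Fgf5 rose to day 2 by 1.84 ± 0.50 (log2, SE) in the controls (adjusted p = 0.0093) and by 3.80 ± 0.54 in the knockouts (adjusted p = 7.4e-05). Its fold rise differed widely by series, from 2.71 and 2.8 in the HM1 replicates and 7.18 in 1A4 to 10.9, 10.4 and 41.1 in lines 14, 19 and 319. The 41.1-fold rise of line 319 started from the lowest day 0 level of the 6 series. It fell to day 3 by 5.82 ± 0.61 in the controls (adjusted p = 9.7e-06) and by 6.16 ± 0.61 in the knockouts (adjusted p = 3.9e-06), so that at most 2.67% of the day 2 level remained in any series. The rise in the controls missed the threshold when any 1 control replicate was left out, with adjusted p of 0.059, 0.051 and 0.091.

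Otx2 encodes a homeodomain transcription factor that moves naive cells toward the formative state and later patterns the forebrain. Its control levels were 101.9, 62.3 and 67.3 CPM at day 0 and 153.4, 178.2 and 163.9 CPM at day 2. The knockouts were more variable, at 115.2, 170.7 and 41.2 CPM at day 0 and 235.2, 170.8 and 304.4 CPM at day 2, and overlapped the controls on both days. Otx2 rose by 1.10 ± 0.37 in the controls (adjusted p = 0.028) and by 1.15 ± 0.37 in the knockouts (adjusted p = 0.025). Both rises are small and lose their call with the line as a block (adjusted p = 0.054 and 0.05), and without line 319 the knockout rise was 0.51 (adjusted p = 0.12). At day 3 the gene was nearly silent, with 2.66, 3.54 and 3.31 CPM in the controls and 1.31, 1.27 and 1.94 CPM in the knockouts. Otx2 fell by 5.70 ± 0.45 in the controls (adjusted p = 4.8e-07) and by 7.30 ± 0.49 in the knockouts (adjusted p = 8e-08). In the knockouts the day 3 level was 0.56% to 0.74% of day 2, against 1.74% to 2.02% in the controls. The difference of the fall between genotypes was not called (adjusted p = 0.47).

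Pou3f1, also called Oct6, encodes a POU-domain transcription factor of the epiblast and of neural progenitors. Day 0 levels were 19.4, 10 and 12.1 CPM in the controls and 15.9, 30.1 and 5.75 CPM in the knockouts. Day 2 brought them to 104.8, 107.7 and 80.4 CPM in the controls and 214, 258.5 and 176.9 CPM in the knockouts, again with no overlap between genotypes. The rise was 2.82 ± 0.53 in the controls (adjusted p = 0.00082) and 3.65 ± 0.55 in the knockouts (adjusted p = 0.00013). Unlike Fgf5 and Otx2, Pou3f1 kept a clear level at day 3, with 13.4, 17.6 and 29.0 CPM in the controls and 9.57, 7.66 and 24.2 CPM in the knockouts. Pou3f1 fell by 2.29 ± 0.52 in the controls (adjusted p = 0.0053). In the knockouts it fell by 3.97 ± 0.56 (adjusted p = 0.00011). The control fall was not called without HM1 replicate 1 or without HM1 replicate 2 (adjusted p = 0.084 and 0.091). In line 14 and line 19, 4.47% and 2.96% of the day 2 level was left, against 12.8% and 16.3% in the HM1 replicates, while line 319 kept 13.7% and its control 1A4 kept 36%.

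Zic2 encodes a zinc-finger transcription factor of the primed epiblast and the neural plate. Its levels in the controls were 83.3, 66.6 and 40.0 CPM at day 0, 176.9, 168.6 and 119.7 CPM at day 2 and 43.0, 50.6 and 55.3 CPM at day 3. The knockouts ran from 90.5, 83.1 and 18.3 CPM through 244.9, 150.2 and 115.7 CPM to 45.6, 39.4 and 40.1 CPM and overlapped the controls on every day. This was the shallowest of the 5 peaks called at both steps in its fall, with 24.3% to 46.2% of the day 2 level left in the controls and 18.6% to 34.6% in the knockouts. Zic2 rose by 1.33 ± 0.36 (adjusted p = 0.009) and 1.51 ± 0.36 (adjusted p = 0.0042) in controls and knockouts. It then fell by 1.57 ± 0.36 (adjusted p = 0.0054) and 1.97 ± 0.36 (adjusted p = 0.0009), and the control steps lost their calls in 2 of the 3 fits that left out a control replicate.

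Pim2 encodes a serine/threonine kinase that promotes growth and survival, and its gene is on the X chromosome. Day 0 levels were 172.2, 103.4 and 62.6 CPM in the controls and 74.7, 97.6 and 33.5 CPM in the knockouts. At day 2 they were 888.4, 799.4 and 531.4 CPM in the controls and 729.3, 1415.7 and 801 CPM in the knockouts. The highest value, in line 19, came from the library that stood apart, and the genotypes overlapped with or without it. Pim2 rose by 2.72 ± 0.56 in the controls (adjusted p = 0.0015) and by 3.85 ± 0.59 in the knockouts (adjusted p = 0.00014), or by 3.5 in the knockouts without line 19 at day 2. It fell by 3.72 ± 0.59 (adjusted p = 0.00037) and 3.93 ± 0.60 (adjusted p = 0.0002), to 56.5, 40.9 and 69.1 CPM in the controls and 34.8, 28.3 and 125.6 CPM in the knockouts. Against its control 1A4, line 319 was at a log2 ratio of -0.90 at day 0, where the median X-linked gene was at 0.74, and at 0.59 and 0.86 at days 2 and 3. The part of the second X chromosome in these values cannot be told apart from that of Nup133, since 1A4 and 319 differ in both.

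Foxd3 encodes a forkhead transcription factor needed by the epiblast and later by neural crest. It was expressed at days 0 and 2 and close to 0 at day 3. Its control levels were 22.6, 22.3 and 14.8 CPM at day 0 and 26, 25.9 and 15.7 CPM at day 2, so the rise in the controls was 0.18 ± 0.33 and was not called (adjusted p = 0.72). The knockouts held 28.0, 42.5 and 48.8 CPM at day 0 and 64.6, 80.5 and 63.7 CPM at day 2, above every control sample on both days. Their rise of 0.80 ± 0.33 was not called either (adjusted p = 0.073), though each of the 3 lines was higher at day 2, by 2.3-, 1.89- and 1.31-fold. It passed the threshold without line 319 (1.04, adjusted p = 0.021) and without 1A4 (0.83, adjusted p = 0.037). At day 3 the raw counts were 0, 2 and 6 in the controls and 9, 1 and 11 in the knockouts, which is at most 0.28 CPM. The fitted changes of -8.15 ± 0.55 and -8.71 ± 0.51 were called (adjusted p = 8.6e-08 and 1.8e-08), but with so few counts their size depends on the prior count of the fit.

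Grhl2 encodes a grainyhead-like transcription factor that keeps epithelial enhancers open as cells leave the naive state. It had no shared peak at day 2. Control levels were 69.0, 55.0 and 68.7 CPM at day 0 and 48.6, 57.0 and 71.6 CPM at day 2, and knockout levels were 59.3, 87.1 and 44.8 CPM and then 57.1, 40.2 and 127.4 CPM. The knockout lines thus went in different directions, with day 2 at 0.96 times day 0 in line 14, 0.46 in line 19 and 2.85 in line 319. At day 3 they held 6.83, 6.11 and 19.3 CPM, and the controls 12.8, 15.3 and 19.9 CPM. Grhl2 fell by 1.89 ± 0.36 in the controls (adjusted p = 0.0017) and by 2.82 ± 0.38 in the knockouts (adjusted p = 6.9e-05).

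Sall2 encodes a zinc-finger transcription factor found in neural tissue. It rose from 33.4, 19.6 and 19.0 CPM at day 0 to 149.1, 136.4 and 171.8 CPM at day 2 in the controls, and from 34.0, 46.2 and 12.7 CPM to 288.1, 231 and 205.7 CPM in the knockouts. The increases of 2.71 ± 0.32 (adjusted p = 2.1e-05) and 3.02 ± 0.33 (adjusted p = 7.8e-06) had the smallest p of the 8 members at this step. After retinoic acid it was at 159.4, 149.1 and 177.2 CPM in the controls and 220.7, 228.4 and 160 CPM in the knockouts. The control samples thus kept 103.2% to 109.2% of their day 2 level and the knockouts 76.6% to 98.9%. The step from day 2 to day 3 passed the test in neither genotype, with 0.08 ± 0.30 in the controls (adjusted p = 0.88) and -0.26 ± 0.30 in the knockouts (adjusted p = 0.53). The difference of the steps between genotypes was not called for any member.

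**Figure D2:**
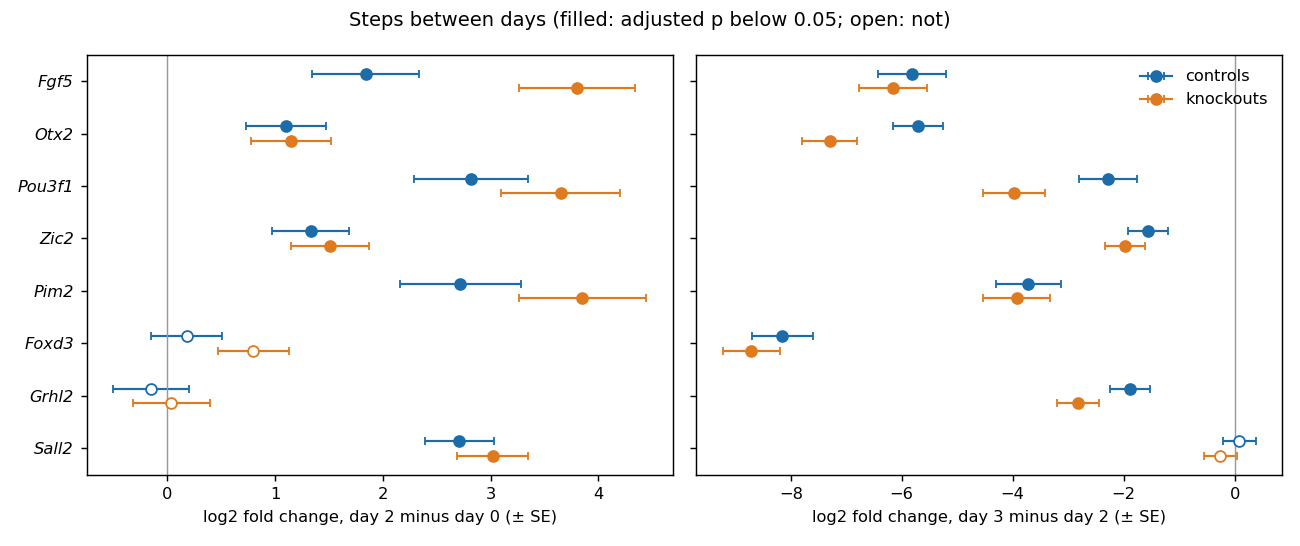
Fitted log2 fold change with its SE for each member between day 0 and day 2 (left) and between day 2 and day 3 (right), in controls (blue) and knockouts (orange); filled points passed an adjusted p of 0.05. The steepest early rises were those of Fgf5 (3.80), Pim2 (3.85) and Pou3f1 (3.65) in the knockouts, and Sall2 alone shows no called fall.

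Levels can be set side by side between genes per kilobase of the transcript used. In the day 2 controls Pim2 was highest at 361.7 ± 90.9 CPM per kb (SD, n = 3), followed by Otx2 at 77.0 ± 5.8 and Zic2 at 63.6 ± 12.7. Sall2 (29.6 ± 3.48), Pou3f1 (25.4 ± 3.89) and Fgf5 (23.9 ± 1.82) formed the middle, where neighbours in the order overlapped, as did Otx2 and Zic2. Grhl2 (11.9 ± 2.35) and Foxd3 (9.7 ± 2.55) were lowest and overlapped too. Among the day 2 knockouts Pou3f1 (56.2 ± 10.6) and Fgf5 (53.3 ± 6.65) stood above Sall2 (46.9 ± 8.2) in mean, with overlapping samples, and Foxd3 (29.9 ± 4.08) stood above Grhl2 (15.1 ± 9.35) with no overlap.

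At day 2 the knockouts held more Foxd3 than the controls. The difference was 1.63 ± 0.34 in log2 (adjusted p = 0.026), a 3.1-fold higher level, and it was the only 1 of the 8 members called, where 1.6% of all genes tested were called (0.635% higher). Each knockout line exceeded the control of its own background, by 2.49-fold in line 14, 3.1-fold in line 19 and 4.06-fold in line 319. The call held without line 19 at day 2 (1.52, adjusted p = 0.034) and when the fit held HM1 and its derivatives only (1.48, adjusted p = 0.046). It was lost without any 1 of the 3 control replicates, at 1.74, 1.74 and 1.33 (adjusted p = 0.15, 0.22 and 0.099), and when day 2 was fitted alone (1.66, adjusted p = 0.24).

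Beside Foxd3, which is also a neural crest gene, the neural crest list had 1 of 11 tested members higher at day 2. That was Msx1, from 0.85 ± 0.11 to 2.8 ± 1.44 CPM (1.68 ± 0.40, adjusted p = 0.045), a call lost without any 1 control replicate (adjusted p from 0.2 to 0.3) and without line 19 at day 2 (0.056). In this list 5 of 11 genes had an unadjusted p under 0.05 at day 2, and DESeq2 called 4. The median log2 difference was 0.38, against 0.02 for all genes. The summed level of the list was 20.3 to 24.7 CPM in the day 2 controls and 21 to 27.4 CPM in the knockouts. It held opposite changes, with Ets1 at 12.4 ± 1.07 CPM in the controls and 7.59 ± 1.96 CPM in the knockouts. Twist1 was at 3.33 ± 0.35 and 6.79 ± 0.99 CPM. Tfap2b stayed under 0.1 CPM in all these samples.

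A further 3 members had every day 2 knockout sample above every control sample, which makes 4 of 8, against 9.94% of all genes. For Fgf5 the difference was 1.15 ± 0.48 (adjusted p = 0.2), with lines 14, 19 and 319 at 2.27, 2.61 and 1.85 times their own controls. Pou3f1 gave 1.15 ± 0.50 (adjusted p = 0.21), with 2.01, 2.43 and 2.2 times. Sall2 gave 0.63 ± 0.30 (adjusted p = 0.26), with 2.02, 1.62 and 1.2 times. None of the 3 was called, and none was called without line 19 at day 2 (adjusted p from 0.28 to 0.39). Without line 319 both Fgf5 (1.19, adjusted p = 0.049) and Pou3f1 (1.30, adjusted p = 0.045) passed, and Fgf5 also passed when the fit held HM1 and its derivatives only (1.29, adjusted p = 0.024).

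For the remaining 4 members the day 2 groups overlapped. Otx2 differed by 0.53 ± 0.36 (adjusted p = 0.43), with ratios of 1.42, 1.03 and 1.86 in lines 14, 19 and 319. Pim2 differed by 0.41 ± 0.52 (adjusted p = 0.69), with ratios of 0.86, 1.68 and 1.51, and by 0.04 without line 19 at day 2. Zic2 and Grhl2 had ratios from 0.87 to 1.42 and from 0.76 to 1.78.

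**Figure D3:**
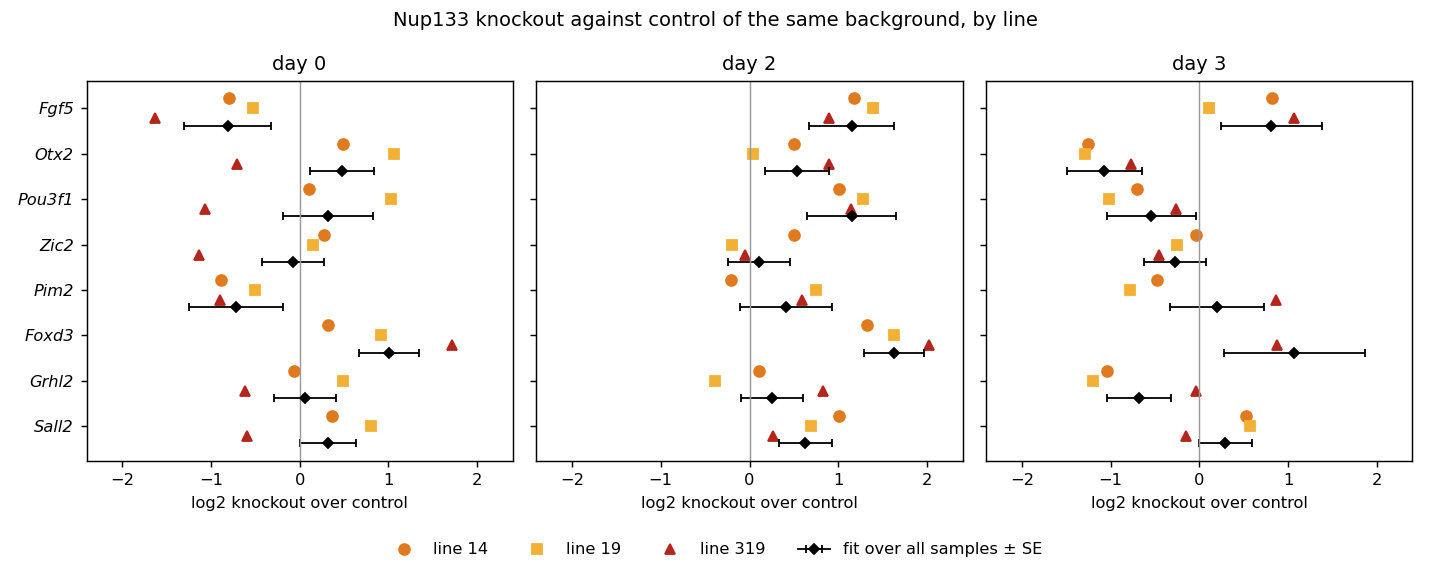
Log2 ratio of each knockout line to the control of its own background at days 0, 2 and 3, with the fitted difference over all samples and its SE in black; the 2 HM1 replicates were averaged, and the Foxd3 ratios of lines 14 and 19 at day 3 are left out because their control counts are at most 2. At day 2 all 3 lines lie above their controls for Fgf5, Otx2, Pou3f1, Foxd3 and Sall2, and at day 0 line 319 lies below its control for every member but Foxd3.

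At day 0 no member was called between genotypes by edgeR (0 of 8, against 0.854% of all genes). One had an unadjusted p under 0.05, and DESeq2 called 0. That 1 was Foxd3, at 1.01 ± 0.34 (adjusted p = 0.22), which was also the 1 of 8 members with all knockout samples above all controls, as for 8.06% of genes. Fgf5 was lower in all 3 lines than in their own controls, with ratios of 0.57, 0.69 and 0.32, and its fitted difference was -0.81 ± 0.49 (adjusted p = 0.64). Pim2 had ratios of 0.54, 0.71 and 0.54 and a difference of -0.72 ± 0.53 (adjusted p = 0.75). Otx2 differed by 0.48 ± 0.36 (adjusted p = 0.76), being above its control in lines 14 and 19 and below it in line 319.

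Line 319 set much of the spread at day 0. It was the lowest of the 6 day 0 samples for 7 of the 8 members, the exception being Foxd3, for which it was the highest. Over all genes it was the lowest sample for 28.3% and the highest for 27.9%. This sample was singled out after its values were seen. The knockout effect in HM1-derived lines minus that in the blastocyst-derived lines was 1.51 ± 0.48 for Otx2, 1.72 ± 0.61 for Pou3f1, 1.34 ± 0.40 for Zic2, 1.18 ± 0.44 for Sall2 and 0.97 ± 0.37 for Fgf5. For Foxd3 it was -1.07 ± 0.50. EdgeR called 0 of the 8 members for this difference (adjusted p from 0.17 to 0.4 for these 6), where 0.969% of all genes were called. The first 5 had an unadjusted p under 0.05, and DESeq2 called 1, Zic2 (adjusted p = 0.046). EdgeR called 4 without line 14 and 3 without line 19, but those fits called 4084 and 4083 of all genes, against 177 with every sample, so the members' calls there are not read as a result. Only 1 knockout line and 1 control line stand for the blastocyst-derived background, and its chromosomes differ between them.

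At day 3 again 0 of 8 members were called between genotypes by edgeR, where 5.2% of all genes were, with 1 at an unadjusted p under 0.05 and 0 called by DESeq2. The low Otx2 remainder was lower in every knockout sample than in every control sample, as for 17.6% of genes, at 0.42, 0.41 and 0.59 times the own control. Its difference was -1.07 ± 0.42 (adjusted p = 0.14), and -1.32 (adjusted p = 0.015) without line 319. Grhl2 differed by -0.68 ± 0.36 (adjusted p = 0.29), with ratios of 0.49, 0.43 and 0.97, and by -1.16 (adjusted p = 0.0079) without line 319. Pou3f1 had ratios of 0.62, 0.49 and 0.83 and a difference of -0.54 ± 0.50 (adjusted p = 0.59). Fgf5 differed by 0.81 ± 0.57 (adjusted p = 0.45) at levels of at most 3.16 CPM, and Sall2 by 0.29 ± 0.30 (adjusted p = 0.64). For Pim2 the lines diverged, at 0.72, 0.58 and 1.82 times their controls. Its effect differed between backgrounds by -1.49 ± 0.59 and that of Grhl2 by -1.07 ± 0.42, neither called (adjusted p = 0.47 for both). For this difference between backgrounds edgeR called 0 of 8 members at day 3 (2 at an unadjusted p under 0.05, 0 by DESeq2, 0.0219% of all genes) and 0 of 8 at day 2 (1, 0 and 0.547%). The day 2 value with an unadjusted p under 0.05 was that of Grhl2, at -0.94 ± 0.41 (adjusted p = 0.32). Without line 14 it was called together with 8919 of all genes, against 100 with every sample, and nothing is read from that call.

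Whether the peak itself differed between genotypes was tested as the difference of the steps. For the rise to day 2, edgeR called 0 of 8 members, 1 had an unadjusted p under 0.05, DESeq2 called 0, and 0.0219% of all genes were called. Fgf5 had the largest difference, a rise greater by 1.95 ± 0.69 in the knockouts (adjusted p = 0.54), followed by Pim2 (1.13 ± 0.74, adjusted p = 0.78), Pou3f1 (0.83 ± 0.71, adjusted p = 0.81) and Foxd3 (0.62 ± 0.47, adjusted p = 0.8). For the fall to day 3, edgeR again called 0 of 8, 2 had an unadjusted p under 0.05, DESeq2 called 0, and 0.0383% of all genes were called. Those 2 were Pou3f1 (-1.68 ± 0.71, adjusted p = 0.56) and Otx2 (-1.60 ± 0.55, adjusted p = 0.47), and Grhl2 stood at -0.93 ± 0.50 (adjusted p = 0.58). Pou3f1 passed without line 319 (-2.46, adjusted p = 0.049). The fits that hold these differences share the day 2 samples with the genotype comparison at day 2.

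The members also resembled each other to different degrees over the 18 samples, which share the same 6 series and 3 days. On log2(CPM + 1), Pearson's r was 0.96 for Otx2 with Foxd3, 0.95 for Pou3f1 with Pim2, 0.93 for Otx2 with Grhl2 and for Fgf5 with Pim2. Sall2 stood apart, with r from -0.41 (Grhl2) to 0.55 (Pou3f1). Among 14164 genes that are no members and reach a mean of 1 CPM, Enpp2, which encodes the lysophospholipase D autotaxin, followed Fgf5 with r = 0.959. Enpp2 averaged 7.03, 93.5 and 1.1 CPM in the controls at days 0, 2 and 3 and 7.86, 229.7 and 1.68 CPM in the knockouts. Ptger4 had the same r with Fgf5 at 0.959. The gene most like Otx2 was Trap1 (0.985), and Hes6, a HES-family transcription factor gene, was second for Pou3f1 (0.956). Hes6 averaged 11.8, 39.4 and 18.4 CPM in the controls and 14.8, 73.0 and 14.5 CPM in the knockouts. Zic5, the neighbour of Zic2 and of the same family, ranked after Tmem98 (0.929) and Auts2 (0.922) for Zic2 (0.92). Vrtn led for Pim2 (0.964), the noncoding Platr10 for Foxd3 (0.981), the ETS factor gene Etv5 for Grhl2 (0.969) and Sfxn5 for Sall2 (0.967).

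Other genes of the formative and primed state followed the members in part. Of 26 such genes, 13 rose and 5 fell from day 0 to day 2 in the controls, with a median log2 change of 0.79, against 0.01 for all genes and 1.58 for the 8 members. In the knockouts 16 rose and 3 fell (median 1.26, all genes 0.06, members 2.27). The 3 with the smallest adjusted p in both genotypes were Car14, a carbonic anhydrase, Sox11, a neural transcription factor, and Dnmt3b, a de novo DNA methyltransferase. In the controls these rose by 3.75 ± 0.29 (adjusted p = 6.5e-07), 2.11 ± 0.17 (adjusted p = 1.1e-06) and 2.99 ± 0.27 (adjusted p = 2.2e-06). Dnmt3b reached 2972 ± 174 CPM at day 2 (SD, n = 3). From day 2 to day 3, 11 of the 26 fell and 2 rose in the controls (median -1.06), and 12 fell and 2 rose in the knockouts (median -1.32), against medians of -3.01 and -3.95 for the members. Dnmt3b fell by 4.19 ± 0.29 (adjusted p = 1e-07) in the controls, Lef1, a transcription factor of WNT signalling, by 3.20 ± 0.35 (adjusted p = 1.5e-05) and Dnmt3a by 1.61 ± 0.26 (adjusted p = 0.00041).

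Between genotypes 0 of these 26 genes were called at day 2 by edgeR, 4 had an unadjusted p under 0.05, and DESeq2 called 1. At day 3, 2 were called lower in the knockouts (6 at an unadjusted p under 0.05, 3 called by DESeq2), where 5.2% of all genes were called. These were Tdgf1, which encodes a NODAL co-receptor, at -2.55 ± 0.68 (adjusted p = 0.041), and Krt18 at -1.62 ± 0.45 (adjusted p = 0.05 after rounding). Neither was called without HM1 replicate 1, HM1 replicate 2, line 14 or line 19, nor was Krt18 without 1A4. At day 0, 3 were lower in the knockouts: Fgf8 from 6.88 ± 3.32 to 0.69 ± 0.21 CPM, Wnt3 from 8.02 ± 1.91 to 0.88 ± 0.19 CPM and Krt18 from 81.1 ± 41.6 to 14.4 ± 5.67 CPM. Their differences were -3.30 ± 0.56 (adjusted p = 0.0084), -3.33 ± 0.67 (adjusted p = 0.025) and -2.49 ± 0.47 (adjusted p = 0.016). None of the 3 stayed called without line 14 (adjusted p from 0.1 to 0.13) or without HM1 replicate 2 (0.12 to 0.29). Fgf8 also lost it without line 19 (0.052), Krt18 without HM1 replicate 1 (0.073), and Wnt3 without either (0.07 and 0.12). Fgf8 and Wnt3 encode signals of the early primitive streak, and the mesendoderm list was also lower at day 0. Its sum was 56.0 to 117 CPM in the day 0 controls and 12.9 to 17.1 CPM in the knockouts, with 5 of 8 tested genes lower. Over all genes, 0.854% were called at day 0 in either direction. At day 2, 3 of the 8 mesendoderm genes were lower (Cer1, Lhx1 and T), where 1.6% of all genes were called in either direction. The day 2 sums were 21.6 to 39.2 CPM in the controls and 9.88 to 25.7 CPM in the knockouts. The T call was lost without HM1 replicate 1, HM1 replicate 2 or line 19 (adjusted p = 0.16, 0.14 and 0.052). With day 2 fitted alone, Cer1, Lhx1 and T all lost their calls (adjusted p = 0.055, 0.24 and 0.35). At day 3 the order of the sums was the opposite, at 23.3 to 39.1 CPM in the controls and 41.5 to 95.6 CPM in the knockouts. Most of that gap was Lhx1, at 9.02 ± 5.62 CPM in the controls and 42.3 ± 22.8 CPM in the knockouts. It was the 1 of 8 genes called higher, and 0 were called lower. The means of T and Foxa2 were lower in the day 3 knockouts, and those of the other tested genes were higher. The part of mesendoderm genes in the member levels was not tested.

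The 12 naive factors ran opposite to the members in the first step and apart from them in the second. All 12 fell from day 0 to day 2 in both genotypes, with medians of -3.35 in the controls and -3.99 in the knockouts. Of all 18273 genes, 6438 in the controls and 6561 in the knockouts were called at that step in either direction. In the controls the reprogramming factor Klf4 fell by 5.26 ± 0.54 (adjusted p = 6.3e-06), Tbx3 by 5.05 ± 0.38 (adjusted p = 6.5e-07) and Nr5a2 by 3.71 ± 0.40 (adjusted p = 8.7e-06). From day 2 to day 3, edgeR called 0 of 12 in the controls (2 at an unadjusted p under 0.05, 1 called by DESeq2) and 3 lower in the knockouts, Nr0b1, Klf2 and Klf5. With the line as a block 2 and 5 were called. The 3 in the knockouts became 1 without either HM1 replicate and 0 without line 14. Of 16 regulators of the exit from pluripotency, 1 rose and 4 fell in the first step in the controls (median -0.48), and 2 rose and 7 fell in the second (median -0.55). Over all 18273 genes, 6438 and 3918 were called at these steps. The 5 calls of the first step became 1 without HM1 replicate 1 and 2 without HM1 replicate 2 or 1A4, and the 9 of the second became 5 without either HM1 replicate. Between genotypes 0 of the 16 were called by edgeR at any day, with 1, 4 and 4 at an unadjusted p under 0.05 at days 0, 2 and 3, and DESeq2 called 0, 2 and 0. From day 2 to day 3 in the controls, the FGF ligand gene Fgf4 fell by 3.28 ± 0.48 (adjusted p = 0.0002). The ERK feedback inhibitor Spry4 fell by 2.65 ± 0.40 (adjusted p = 0.00023), while the receptor gene Fgfr2 rose by 2.38 ± 0.26 (adjusted p = 1.3e-05). In the knockouts Fgf4 fell by 4.39 ± 0.51 (adjusted p = 1.9e-05) and Spry4 by 3.78 ± 0.42 (adjusted p = 1.2e-05), and Fgfr2 rose by 2.45 ± 0.26 (adjusted p = 7.2e-06).

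**Figure D4:**
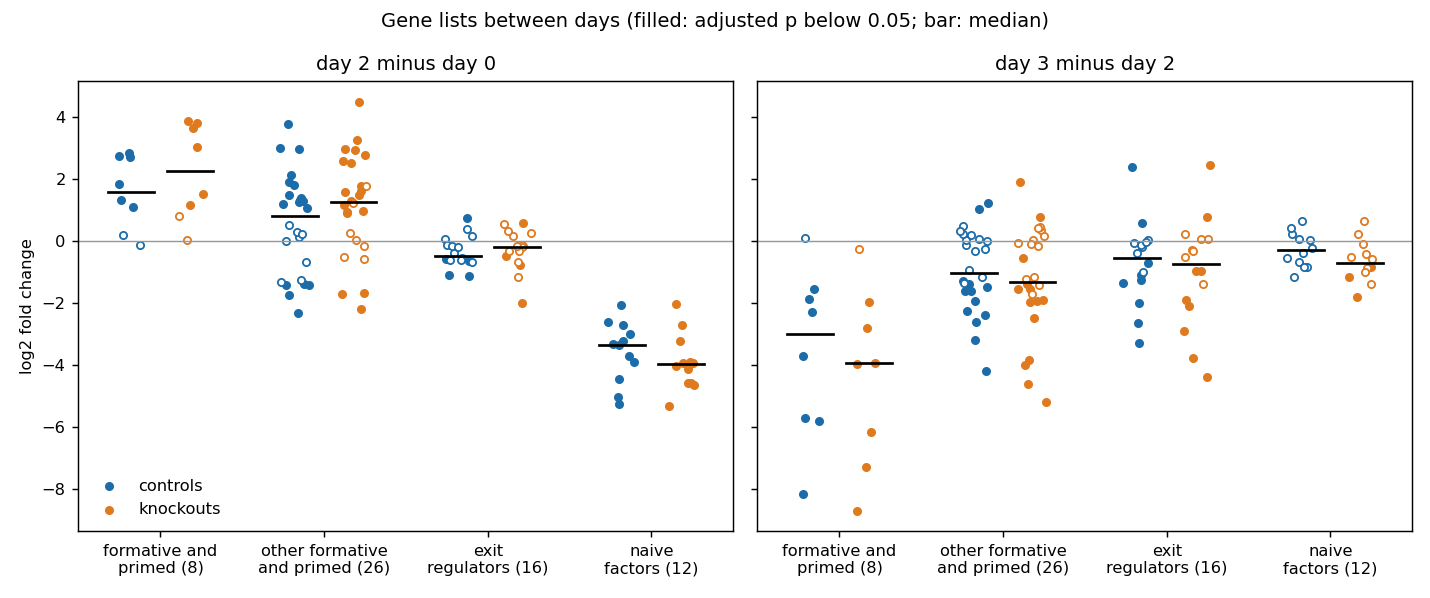
Log2 fold change of each gene in 4 lists between day 0 and day 2 (left) and between day 2 and day 3 (right), in controls (blue) and knockouts (orange), with filled points for an adjusted p below 0.05 and a bar at the median. The naive factors lie below 0 at the first step (medians -3.35 and -3.99) and the members lie lowest at the second (medians -3.01 and -3.95).

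Markers of other cells were summed at day 2, where the members peak. Fibroblast genes, which feeder cells would carry, summed to 243.5 to 303.9 CPM in the controls and 165.9 to 214.8 CPM in the knockouts, with 3 of 11 tested genes lower and 1 higher. Postn (-5.21 ± 0.76, adjusted p = 0.004), Acta2 (-3.16 ± 0.48, adjusted p = 0.0054) and S100a4 (2.01 ± 0.46, adjusted p = 0.039) had the smallest p. Lum was under 0.1 CPM in all day 2 samples and Postn in all knockout samples. Primitive endoderm genes summed to 119 to 121.4 CPM and 65.0 to 118.5 CPM, with 1 of 9 higher, Pdgfra (1.47 ± 0.32, adjusted p = 0.032). The Pdgfra and S100a4 calls were each lost in 8 of 16 alternative fits, among them without any 1 control replicate. S100a4 stood at 1.42 (adjusted p = 0.091) without line 19 at day 2. Postn lost its call in the HM1-derived lines only (adjusted p = 0.058), with the longest transcript (0.068) and with day 2 fitted alone (0.29). Acta2 lost its call without HM1 replicate 2 (adjusted p = 0.08) and with day 2 fitted alone (0.28). The part of such cells in the member levels was not tested. Epithelial and surface ectoderm genes summed to 1674.1 to 1928 and 1095.5 to 1604.5 CPM. In that list edgeR called 0 of 10 tested genes (3 at an unadjusted p under 0.05, 1 called by DESeq2), while Krt5, Krt14 and Trp63, which define the epidermis, were under 0.1 CPM in every day 2 sample.

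Most neural progenitor genes rose from day 2 to day 3, the step at which Sall2 kept its level. Their summed level was 203.5 to 258.3 CPM in the day 2 controls and 81.5 to 169.4 CPM in the knockouts. Most of it was Nes, at 223.4 ± 32.1 CPM in the controls and 108.3 ± 35.6 CPM in the knockouts. The median gene of the list was higher in the day 2 knockouts, by 0.33 in log2, against 0.02 for all genes. Between genotypes edgeR called 0 of 12 genes at day 2 (3 at an unadjusted p under 0.05, 3 called by DESeq2). From day 2 to day 3, 8 of 12 rose and 1 fell in the controls and 10 rose in the knockouts, with medians of 2.32 and 3.21. Of all 18273 genes, 3918 in the controls and 6141 in the knockouts were called at this step in either direction. At day 3 the sums were 279.4 to 337.1 CPM in the controls and 365 to 993.6 CPM in the knockouts. There 4 of 12 were higher in the knockouts, where 5.2% of all genes were called in either direction. Pou3f1 and Zic2, which also serve in neural tissue, were among the members that fell at this step in both genotypes.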

How the data were processed

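PolyA RNA was sequenced from 18 biological samples, each deposited as 4 technical files (72 in all), with a TruSeq stranded mRNA kit per the labels' protocols. The authors deposited raw counts per Ensembl transcript. Per the submitters' processing notes, the tools were bcl2fastq 2.17.1.14, STAR 2.4.0k, SAMtools and HTSeq on mm10. The annotation release, the counting mode and whether strand was used are not given in the sources used here.

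Technical files were summed, since their spread over genes was close to sampling noise. Of 110379 transcript identifiers, 108214 matched GENCODE M21 (GRCm38), giving 45321 genes; unmatched identifiers held 1.44% to 2.46% of counts and were left out. Because a read is counted in each transcript it overlaps, a gene was represented by its transcript with the most counts over all files, and its level rests on that transcript.

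EdgeR 4.0.16 (R 4.3.3, limma 3.58.1) fitted 18273 genes after its filter on low counts, with TMM scaling, the group and the background (HM1-derived or blastocyst-derived) as terms, and a robust quasi-likelihood test with 11 residual degrees of freedom. The common biological coefficient of variation was 0.246. Genes with a Benjamini-Hochberg adjusted p below 0.05 over all 18273 were called. All adjusted p-values are from this test unless a sentence names another tool or fit, and fold changes are log2 with their SE. A second fit with the 12 groups of genotype, day and background tested the difference of the knockout effect between backgrounds, with 6 residual degrees of freedom. Differences of the steps between genotypes were contrasts of the first fit. The code was tested on simulated counts.

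The 3 days of a line share that line, so replicate numbers pair samples by construction. Deviations from the group mean correlated from -0.16 to 0.54 between days of a line, above 0.1 in 15 of 18 pairs. Replicates of a control or knockout group are separate lines or, for HM1, samples labelled as biological replicates. The main fit did not model the pairing over days. Its p-values rest on the spread of samples within groups after the background term, pooled over days and genotypes. The controls hold 2 lines, so this is not the spread between 3 independent control lines.

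The members and the other gene lists were chosen with earlier results of these data known. All 8 members are named. From every other list, up to 3 genes with the smallest adjusted p in the comparison are named, and genes most like a member are the 3 with the highest Pearson correlation. Any other gene was chosen after its values were seen. Alternatives were DESeq2 1.42.0, RLE size factors, no filter, the longest or the summed transcripts, no background term, HM1-derived lines only, no line 19 at day 2, leaving out each replicate, the line as a block and, chosen after seeing the data, each day fitted alone.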

Additional observations from a re-analysis of the deposited data

Results flagged for a closer look

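The other genes of the formative and primed state held 3 for which the knockout effect at day 2 differed between the backgrounds by the interaction test. Expressed as the effect in the HM1-derived lines minus that in the blastocyst-derived lines, the log2 difference was -4.19 ± 0.45 (SE) for Wnt8a (edgeR, adjusted p = 0.0057), -3.88 ± 0.59 for Wnt3 (adjusted p = 0.023) and -3.77 ± 0.57 for Fst (adjusted p = 0.023). Wnt8a and Wnt3 encode WNT ligands and Fst encodes follistatin, an antagonist of activin. Wnt8a was at 11.2 and 7.6 CPM in the HM1 replicates and 6.54 and 8.44 CPM in lines 14 and 19, but at 2.12 CPM in 1A4 and 30.6 CPM in line 319. Wnt3 was at 4.54 and 2.79 CPM in the HM1 replicates and 0.91 and 0.83 CPM in lines 14 and 19, against 2.69 CPM in 1A4 and 9.6 CPM in line 319. For Fst the values were 18.1, 11.4, 6.46 and 8.29 CPM in the HM1-derived samples, 6.89 CPM in 1A4 and 46.6 CPM in line 319. Each blastocyst-derived group is a single sample, assumed to vary like the others, and line 319 differs from 1A4 in its chromosomes as well as in Nup133. The calls were lost without HM1 replicate 1 or 2 (adjusted p from 0.18 to 0.36).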

How the results depend on the processing

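Of 885 recomputed tests of members that are printed, 833 kept their direction and their side of the threshold, 26 lost a call and 26 gained one. Over all members, comparisons and settings, 49 of 1344 fold changes took the opposite sign, none of them where the value was called (largest, 0.9 in log2). The number of members that differed between genotypes at day 2 was 1, and it became 2 in the HM1-derived lines alone, 0 with each day fitted alone and 0 to 3 when a replicate was left out. At day 3 it was 0, and became 1 in the HM1-derived lines alone, 1 with each day fitted alone and 0 to 2 without a replicate. The 6 rises in the controls became 3 to 6 without a replicate, and the fall that differed between genotypes went from 0 to 0 to 1 genes. For the knockout effect between backgrounds the members called at day 0 went from 0 to 1 with DESeq2, 2 without the filter on low counts, 3 without line 19 at day 2 and 0 to 4 without a replicate. At day 2 they were 0 to 2 without a replicate, and at day 3 they were 1 without the filter and 0 to 1 without a replicate. All-gene calls for these differences moved too, at day 0 from 177 to 587 with DESeq2, 724 without the filter, 2022 without line 19 at day 2 and 0 to 4084 without a replicate. At day 2 they moved from 100 to between 0 and 8919 without a replicate, and at day 3 from 4 to 465 without the filter and 0 to 3414 without a replicate. With the line as a fixed replicate block, the rises called went from 6 to 5 in each genotype, Otx2 being lost, and the block changed no other call of a printed member. Over all genes, 292 differed between genotypes at day 2, against 1400 with DESeq2, 185 without the background term, 0 with that day fitted alone and 22 to 1374 without a replicate. At day 0 they were 156, against 556 with DESeq2, 380 without line 19 at day 2, 313 in the HM1-derived lines alone, 257 with the day alone and 18 to 406 without a replicate. At day 3 they were 951, against 2063 with DESeq2, 516 without the background term, 3007 without line 19 at day 2, 2625 with the day alone and 17 to 2019 without a replicate. Of 765 recomputed tests of other named genes 107 lost a call. Foxd3 at day 3, with 0 to 11 counts per sample, limits what can be said of its level there.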
